A study of Mus musculus with 9 samples.

Results

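Cytotoxic T cells kill through granules that they release towards a bound target cell. Perforin, encoded by Prf1, forms pores in the target membrane, and the granzymes, which are serine proteases, pass through and start cell death. Serglycin (Srgn) is the proteoglycan that packs these proteins in the granule, Nkg7 is a membrane protein of cytotoxic granules needed for their release, cathepsin W (Ctsw) is a cysteine protease of CD8+ T and NK cells, and the serpins Serpinb9 and Serpinb6b are inhibitors of serine proteases in the cytosol, of which Serpinb9 blocks granzyme B inside the killer cell itself. These 9 genes, Gzma, Gzmb, Gzmc, Prf1, Nkg7, Srgn, Ctsw, Serpinb9 and Serpinb6b, were taken by their symbols from the 41388 genes of the murine table, and each symbol matched 1 row.

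The libraries came from murine Tc17 cells, CD8+ T cells primed towards production of IL-17. Naive CD62L+CD44-CD8+ T cells were sorted from lymph node and spleen of C57BL/6 mice, adult and matched for sex and age per the methods, and all groups were stimulated through CD3 and CD28 for 2 days with 50 U/ml IL-2, TGF-β, IL-6 and an antibody against IFN-γ. Cultures contained 0.2% DMSO alone (Ctrl), dimethyl fumarate at 20 µM (DMF), a drug for multiple sclerosis that reacts with thiols, or 20 µM DMF with 50 µM glutathione (DMF + GSH), the main small thiol of cells. Each of the 3 groups had 3 libraries, with replicate 1 in preparation batch 1 and replicates 2 and 3 in batch 2, and the question was which changes of expression DMF brings about and which of them depend on glutathione. The study describes its data as combined experiments with independent biological replicates, but which animals or cultures gave each library is not stated per library, and p-values measure the spread between these libraries.

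The depth was 7671772 to 14511926 reads per library, and values are normalized counts, that is, reads divided by a factor for the library. The T cell markers (5 of 5 with a mean of at least 10) summed to between 16953 and 21278 in Ctrl, 13820 and 17061 in DMF and 16776 and 21282 in DMF + GSH libraries. Of these, Cd3g, Cd3d, Cd3e and Cd28 were lower with DMF than in Ctrl and in DMF + GSH for every replicate number, and Cd2 was higher than in Ctrl. Their part in the results was not tested. The CD8 genes Cd8a and Cd8b1 summed to between 12145 and 14257 in Ctrl, 13744 and 17402 in DMF and 11829 and 15974 in DMF + GSH libraries, and Cd8a was higher with DMF than in either other group for every replicate number. Cd4 and Cd40lg together stayed at or below 8.31 in every library. Markers of NK cells, which carry the same granules, summed to between 24.2 and 64.4 in Ctrl. The sum was between 150.7 and 164.0 in the DMF libraries, and between 31.2 and 64.9 once GSH was added. Of the 7 NK genes only Eomes and Klre1 had a mean of at least 10, and Eomes, a transcription factor that CD8+ T cells also express, was at 14.9 to 49.9 in Ctrl and 122.9 to 138.6 with DMF. Klre1, an NK cell lectin-like receptor, had 7.28, 7.43 and 9.95 in Ctrl, 25.4, 20.5 and 33.9 in DMF and 6.60, 9.65 and 17.5 in DMF + GSH libraries, so that every DMF library was above all others. The NK-defining genes Ncr1, Klrb1c, Klra4 and Klra1 were at or below 2.84 in all libraries and Klra8 was at 0. In Ctrl replicate 3 the macrophage genes Lyz2 and Csf1r were at 119.4 and 58.3, against at most 10.6 and 5.83 in the other libraries, and the sum of the 5 measured myeloid genes reached 244.6 there. Mast cell and basophil genes, some of whose proteases neighbour the granzymes, summed to at most 40.7. The 4 B cell genes summed to between 68.3 and 92.0 in Ctrl, 58.1 and 80.5 in DMF and 60.3 and 89.8 in DMF + GSH libraries. Of these only Cd79b had a mean of at least 10. The type 17 genes Il17a, Il17f, Il23r and Ccr6, which mark Tc17 cells, summed to between 2961 and 4623 in Ctrl, 771 and 1997 in DMF and 3051 and 5055 in DMF + GSH libraries, so that the sum in every DMF library was below all others. Their part in the results was not tested either.

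Gzmb (ENSMUSG00000015437) and Gzmc (ENSMUSG00000079186) are neighbours on the minus strand of chromosome 14 in GRCm38, at chr14:56258838-56262260 and chr14:56231441-56234656, with 24181 bases between them, and 5 further granzyme genes lie in the same cluster between 56117626 and 56211417. Prf1 (chr10:61297833-61304680, plus strand) and Srgn (chr10:62493833-62527451, minus strand) share chromosome 10, and Gzma (chr13:113093825-113100981, minus strand), Serpinb6b (chr13:32965209-32979067) and Serpinb9 (chr13:33003250-33017957, both plus strand) lie on chromosome 13. Nkg7 is at chr7:43437073-43438249 on the plus strand and Ctsw at chr19:5465043-5468507 on the minus strand. All 9 are annotated as protein coding. Since reads were 50 bases long, the transcripts of each gene were compared with those of all other genes in words of that length. For Gzma, Gzmb, Prf1, Nkg7, Srgn and Ctsw no word was shared with another gene, for Serpinb9 0.378% were, for Serpinb6b 2.92%, and for Gzmc 4.14%, with Gzme, Gzmg and Gzmd.

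The RefSeq promoter windows of GRCm38.p6, from 250 bases before to 50 bases after the transcription start, held 8 of the 9 genes, in 9 windows because Srgn has a pair of starts. They were searched on both strands for 5 motifs, and overlapping matches were allowed: TGANTCA, bound by AP-1, TTCNNNGAA, bound by STAT proteins, TCACACC, an element of T-box factors, TGTGGT, bound by RUNX factors, and TGACGTCA, the cAMP response element. No motif contains another. The windows of the 3 genes past the threshold with the batch term in at least 1 comparison are shown, with the matches in capitals, at chr14:56262285-56262584 (minus strand), chr14:56234608-56234907 (minus strand) and chr10:61297586-61297885 (plus strand).
Gzmb: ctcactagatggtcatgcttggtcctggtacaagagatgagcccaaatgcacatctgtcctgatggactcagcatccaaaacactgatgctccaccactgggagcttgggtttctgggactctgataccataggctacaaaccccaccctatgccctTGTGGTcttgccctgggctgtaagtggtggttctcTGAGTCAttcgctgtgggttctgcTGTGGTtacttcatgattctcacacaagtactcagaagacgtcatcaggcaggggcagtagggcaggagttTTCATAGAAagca
Gzmc: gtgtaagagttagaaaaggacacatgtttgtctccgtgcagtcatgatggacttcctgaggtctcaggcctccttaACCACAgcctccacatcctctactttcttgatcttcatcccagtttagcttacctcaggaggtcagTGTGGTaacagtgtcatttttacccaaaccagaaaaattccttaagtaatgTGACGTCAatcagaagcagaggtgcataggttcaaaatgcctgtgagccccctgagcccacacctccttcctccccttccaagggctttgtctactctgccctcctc
Prf1: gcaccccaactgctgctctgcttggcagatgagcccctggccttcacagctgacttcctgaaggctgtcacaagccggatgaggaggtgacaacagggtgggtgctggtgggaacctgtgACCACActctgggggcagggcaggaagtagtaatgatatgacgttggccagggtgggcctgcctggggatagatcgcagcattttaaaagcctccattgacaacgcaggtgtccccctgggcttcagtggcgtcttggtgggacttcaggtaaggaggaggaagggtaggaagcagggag
In the Gzmb window TGTGGT occurred at -93 and -34 relative to the start, TGAGTCA at -58 and TTCATAGAA at 37. The Gzmc window held TGACGTCA at -57 and TGTGGT at -108 on the coding strand and at -174 on the other, and the Prf1 window held TGTGGT at -130 on the other strand. TGTGGT was present in 7 of the 9 windows (those of Gzma, Gzmb, Gzmc, Prf1, Nkg7 and Serpinb9 and 1 of the pair of Srgn), against 16.8% of the 32851 windows of the table. TTCNNNGAA was present in Gzmb and Nkg7 (8.30% of all windows), TGANTCA only in Gzmb (7.81%), TCACACC only in Nkg7 (3.98%) and TGACGTCA only in Gzmc (1.79%). These matches are descriptions of letters and no binding was measured here.

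Per kilobase of exon, Srgn had the highest level in Ctrl, with 2022 ± 177 normalized counts per kb (SD, n = 3). It was followed by Nkg7 with 1683 ± 194, Ctsw with 1478 ± 222 and Gzmb with 1230 ± 509, and the SDs of each of these neighbours overlapped. Prf1 stood lower at 504 ± 33.2. The serpins followed with 56.1 ± 21.4 for Serpinb6b and 49.0 ± 14.2 for Serpinb9, which did not differ beyond their SDs, and the rare granzymes came last, Gzmc with 11.9 ± 2.51 and Gzma with 5.98 ± 3.43. With DMF, Gzmb stood first with 4963 ± 162 per kb, above Nkg7 with 2237 ± 338 and Srgn with 2126 ± 257, whose SDs overlapped. Ctsw followed with 1225 ± 76.5 and Prf1 with 882 ± 51.6. With DMF + GSH the order was that of Ctrl again, from Srgn with 2200 ± 211 and Gzmb with 1101 ± 222 to Prf1 with 516 ± 44.5 and Gzma with 5.28 ± 1.199. Exon lengths are those of GENCODE vM21, whereas the authors counted on ENSEMBL v76.

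**Figure D1:**
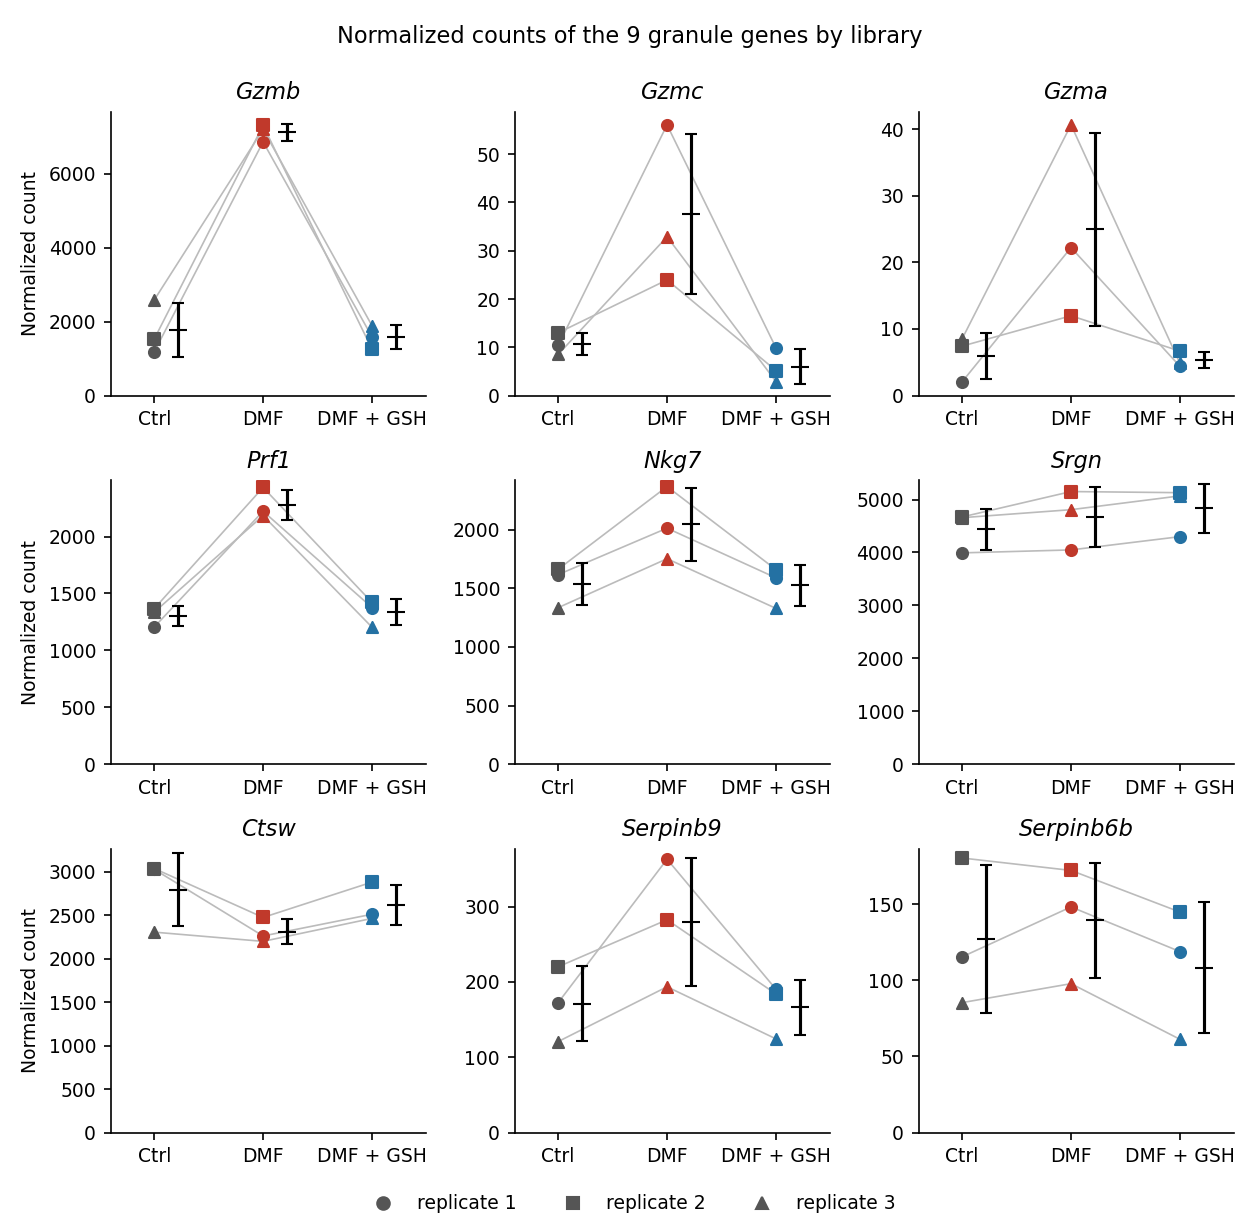
Normalized counts (y axis, from 0, own scale for each gene) of the 9 granule genes in the 9 libraries by group (x axis). Points are libraries, symbols and grey lines mark the replicate number, and black bars give the mean and SD of 3 libraries. Gzmb and Prf1 with DMF lie above all Ctrl and DMF + GSH libraries, whereas Srgn lies between 3992 and 5151 in all of them.

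Comparison of DMF with Ctrl asked which granule genes respond to the drug. Gzmb and Prf1 rose, Gzmb about 4-fold in its mean and Prf1 by 1.75-fold, and Gzma and Gzmc rose as well when the replicate number entered the fit as a block. Nkg7, Serpinb9, Srgn, Ctsw and Serpinb6b did not pass in either fit. With the block, Nkg7 and Serpinb9 in the higher and Ctsw in the lower direction had an adjusted p under 0.01 without the fold required. Genes were called at an adjusted p under 0.01 and a log2 fold change of at least 0.75 in either direction. By limma with the batch as a term, 2 of the 9 genes passed in the higher direction, against 1.22% of the 11599 genes tested. With the replicate block it was 4, against 2.53% of all genes. Gzma and Gzmc entered the test only because their DMF libraries raise the mean over 9 libraries above the minimum of 10, since the 6 Ctrl and DMF + GSH libraries averaged 5.66 and 8.32. Their calls are therefore no independent support, and of the other 7 genes 2 passed in either fit. In 5 genes (Gzmb, Gzmc, Gzma, Prf1 and Nkg7) every DMF library lay above every Ctrl library, which was so for 21.6% of all genes tested, and 3 of these were among the 7 genes. The median log2 fold change was 0.70 over the 9 genes, 0.41 over the 7 and 0.00515 over all genes tested.

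Granzyme B, the most abundant granzyme here and an activator of caspases, had normalized counts of 1184, 1529 and 2587 in Ctrl replicates 1 to 3. With DMF the values were 6865, 7309 and 7205. The DMF libraries lay close together, with a coefficient of variation of 3.26%, whereas Ctrl varied by 41.4% because of the high replicate 3, the library with the raised macrophage genes. The log2 fold change was 2.09 (SE 0.224, 95% interval 1.59 to 2.59, limma adjusted p = 0.00188), the 13th highest among 11599 genes. Within replicate numbers it was 2.53, 2.26 and 1.48, the first from batch 1. Without Ctrl replicate 3 it was 2.38 and remained past the threshold. Replicate 3 was also the highest of the DMF + GSH libraries, at 1894, with Lyz2 and Csf1r at 5.83 each. Among the DMF libraries it was not the highest. The part of the macrophage RNA in the Ctrl value was not tested.

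Perforin was tighter. Prf1 had 1205, 1367 and 1335 in Ctrl and 2223, 2432 and 2184 with DMF, so that the lowest DMF library exceeded the highest Ctrl library by a wide margin. The log2 fold change was 0.81 (SE 0.0847, 95% interval 0.62 to 0.997, limma adjusted p = 0.00173), and the values within replicate numbers, 0.88, 0.83 and 0.71, lay close together. The 95% intervals of Gzmb and Prf1 did not overlap. Both calls were lost with the batch term when Ctrl replicate 1 (adjusted p = 0.0272 for both), DMF replicate 1 (0.0201 for Gzmb and 0.0184 for Prf1) or DMF replicate 3 (0.0124 and 0.0113) was left out of the limma fit. The log2 fold changes in these fits were 1.85, 2.00 and 2.13 for Gzmb and 0.75, 0.81 and 0.85 for Prf1, and the fits called 2, 5 and 12 of all genes tested, in place of 335. With the replicate block Gzmb passed without any single library, and Prf1 fell just short of the fold of 0.75 without Ctrl replicate 1, at 0.749548. Over all alternatives the adjusted p of both genes reached 0.0272 at most, from 4.37e-12 for Gzmb and 2.48e-09 for Prf1.

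The rare granzymes rested on few reads. Gzmc, a granzyme of strongly activated mouse T cells, had 10.4, 13.0 and 8.53 normalized counts in Ctrl and 56.1, 24.0 and 32.9 with DMF. Its log2 fold change was 1.66 (SE 0.371, limma adjusted p = 0.0123), and with the replicate block the adjusted p was 0.00121. It also passed with a pseudocount of 4 (limma adjusted p = 0.00925) and by edgeR (0.00827) and voom (0.00734) on whole reads. Gzma, a tryptase that cuts after basic residues, had 2.08, 7.43 and 8.53 in Ctrl, which is 2, 8 and 6 reads, and 22.2, 12.0 and 40.6 with DMF. Its log2 fold change was 1.89 (SE 0.506, limma adjusted p = 0.0228, with the replicate block 0.00283). Groups did not overlap for either gene, but the DMF libraries spread by 44.0% (Gzmc) and 58.2% (Gzma) of their means, and for both genes DMF replicate 2 was the lowest. The differences within replicate numbers ran from 0.83 to 2.32 for Gzmc and from 0.62 to 2.91 for Gzma. The calls with the block were lost without Ctrl replicate 1 (limma adjusted p = 0.0326 for Gzma and 0.0188 for Gzmc), DMF replicate 1 (0.0347 and 0.0157) or DMF replicate 3 (0.0364 and 0.0158). Without DMF replicate 2, Gzma passed with the batch term too (log2 fold change 2.46, adjusted p = 0.00543 in limma). Over all alternatives the adjusted p ran from 0.000909 to 0.0870 for Gzmc and from 0.000473 to 0.135 for Gzma.

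Nkg7 had 1617, 1663 and 1335 in Ctrl and 2013, 2369 and 1753 with DMF. The groups did not overlap, though the gap between the highest Ctrl and the lowest DMF library was small. The log2 fold change of 0.41 (SE 0.129, limma adjusted p = 0.0418) lay below the fold required, and the replicate block gave an adjusted p of 1.21e-05 for the same fold (range over all alternatives 1.21e-05 to 0.117). Within replicate numbers it was 0.32, 0.51 and 0.39.

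Serglycin stayed level. Srgn had 3992, 4671 and 4657 in Ctrl and 4048, 5151 and 4808 with DMF, with overlapping groups, a log2 fold change of 0.07 and a 95% interval from -0.06 to 0.20 (limma adjusted p = 0.402). For Ctsw the values were 3027, 3037 and 2305 in Ctrl and 2261, 2474 and 2199 with DMF. Its groups overlapped through the low Ctrl replicate 3, and the log2 fold change was -0.26 (SE 0.114, limma adjusted p = 0.112, with the replicate block 0.00265, range over all alternatives 0.000354 to 0.390), below the fold required. It was the single gene of the 9 with a negative value.

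Among the inhibitors, Serpinb9 had 172.5, 220.2 and 120.9 in Ctrl and 362.9, 282.5 and 193.6 with DMF. The groups overlapped, because DMF replicate 3 lay below Ctrl replicate 2. In each replicate number, however, DMF was above Ctrl, by 1.07, 0.36 and 0.67. The log2 fold change was 0.70 (SE 0.247, 95% interval 0.15 to 1.25, limma adjusted p = 0.0582), and with the replicate block the SE was 0.124 and the adjusted p 0.000143, still below the fold of 0.75. It passed with that block when Ctrl replicate 2 (0.84) or DMF replicate 2 (0.81) was left out, and its adjusted p ran from 0.000101 to 0.252 over all alternatives. Serpinb6b had 115.4, 180.2 and 85.3 in Ctrl and 148.1, 172.1 and 97.8 with DMF. Its log2 fold change was 0.16 with a 95% interval from -0.64 to 0.96 (limma adjusted p = 0.759), and its sign turned without Ctrl replicate 3 or DMF replicate 2.

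**Figure D2:**
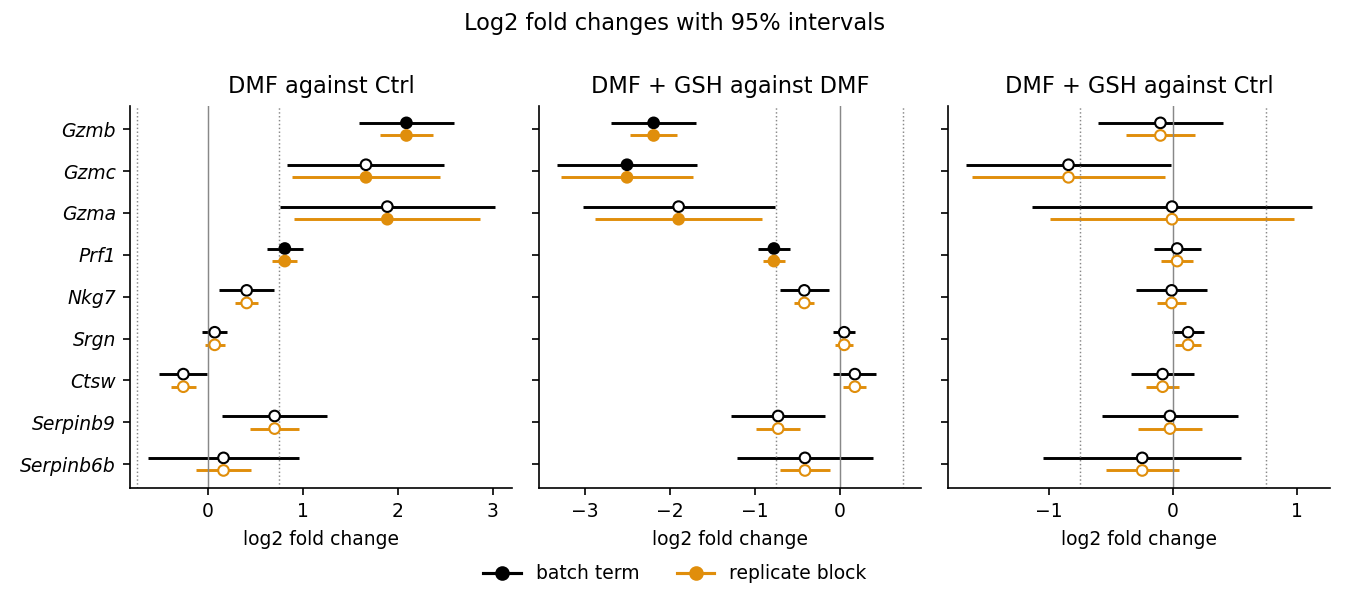
Log2 fold changes (x axis) of the 9 genes (y axis) in the 3 comparisons, with 95% intervals, by limma with the batch term (black) and with the replicate block (orange). Filled points passed the threshold and dotted lines mark a log2 fold change of 0.75 in either direction. Gzmb, Gzmc, Gzma and Prf1 are filled in at least 1 fit in the first 2 comparisons and no gene is filled in the third.

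Addition of glutathione to DMF was compared with DMF alone, to ask which of these changes depended on it. This comparison shares the DMF libraries with the one above, so the values of the pair are given side by side and are not independent. Gzmb, Gzmc and Prf1 fell, and Gzma fell with the replicate block. By limma with the batch term, 3 of the 9 genes passed in the lower direction, against 0.276% of the genes tested, and with the replicate block 4, against 2.41%. Without Gzma and Gzmc, whose entry into the test again rests on the DMF libraries, 2 of 7 passed in either fit. In 6 genes every DMF + GSH library lay below every DMF library (Gzmb, Gzmc, Gzma, Prf1, Nkg7 and Serpinb9), as in 20.5% of all genes tested, and 4 of these were among the 7. The median log2 fold change was -0.73 over the 9 genes, -0.42 over the 7 and -0.00165 over all genes tested.

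Gzmb had 1592, 1258 and 1894 with DMF + GSH, in place of 6865, 7309 and 7205 with DMF. The log2 fold change was -2.19 (SE 0.224, 95% interval -2.69 to -1.69, limma adjusted p = 0.00433), and it was -2.11, -2.54 and -1.93 within replicate numbers. Gzmc had 9.90, 5.20 and 2.92, which rests on 9, 7 and 3 reads. Its log2 fold change was -2.50 (SE 0.371, limma adjusted p = 0.00844). Prf1 had 1376, 1422 and 1204, and its log2 fold change was -0.77 (SE 0.0847, 95% interval -0.96 to -0.59, limma adjusted p = 0.00472), just past the fold required. Gzma had 4.40, 6.68 and 4.86, with a log2 fold change of -1.90 (SE 0.506, limma adjusted p = 0.0278, with the replicate block 0.00309).

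The calls with the batch term depended on single libraries. Gzmb lost it without DMF replicate 1 (adjusted p = 0.0361), DMF replicate 3 (0.0302), DMF + GSH replicate 1 (0.0450) or DMF + GSH replicate 2 (0.0142) in limma. The fold change (log2) stayed between -2.34 and -1.97 in these fits, which called 4, 0, 0 and 0 of all genes tested, in place of 63. Gzmc lost it without the same libraries (0.0941, 0.0496, 0.0688 and 0.0348) and without Ctrl replicate 1 (0.0197), and so did Prf1 (0.0466, 0.0302, 0.0450, 0.0145 and 0.0165). Prf1 also dropped below the fold without DMF replicate 2 (-0.73) or DMF + GSH replicate 3 (-0.69), and under quantile normalization (-0.73). In the fit of the 6 libraries compared Gzmc (adjusted p = 0.0187) and Prf1 (0.0174) lost it in limma, and Gzmc did so without the batch term (0.0128). Direction was kept in all of these. With the replicate block, Gzmb and Gzmc passed without any single library, and Prf1 failed only without DMF + GSH replicate 3 (-0.71). Gzma lost its call with the block without DMF replicate 1 (limma adjusted p = 0.0382), DMF replicate 3 (0.0383) or DMF + GSH replicate 3 (0.0367). Over all alternatives the adjusted p reached 0.0450 for Gzmb, 0.0466 for Prf1, 0.0941 for Gzmc and 0.161 for Gzma.

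Nkg7 had 1590, 1660 and 1329 with DMF + GSH, below each DMF library, with a log2 fold change of -0.42 (SE 0.129, limma adjusted p = 0.0443, with the replicate block 1.16e-05, at most 0.1496 over all alternatives) that did not reach the fold required. Serpinb9 had 190.3, 184.1 and 124.5, and its log2 fold change was -0.73 (SE 0.247, limma adjusted p = 0.0596, with the replicate block 0.000117, at most 0.263 over all alternatives), again short of the fold. With that block it passed when DMF replicate 2 (-0.84), DMF replicate 3 (-0.75) or DMF + GSH replicate 3 (-0.76) was left out. For Srgn the values were 4299, 5129 and 5069 (log2 fold change 0.05, 95% interval -0.08 to 0.18) and for Ctsw 2511, 2880 and 2463 (0.18, 95% interval -0.08 to 0.43). Serpinb6b had 118.8, 144.8 and 61.3 (-0.41, 95% interval -1.21 to 0.39). The groups of Srgn, Ctsw and Serpinb6b overlapped with DMF. With the replicate block the 95% interval lay above 0 for Ctsw (0.04 to 0.31, limma adjusted p = 0.0330). That of Serpinb6b lay below 0 (-0.70 to -0.12, limma adjusted p = 0.0254), and neither gene reached the fold required.

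**Figure D3:**
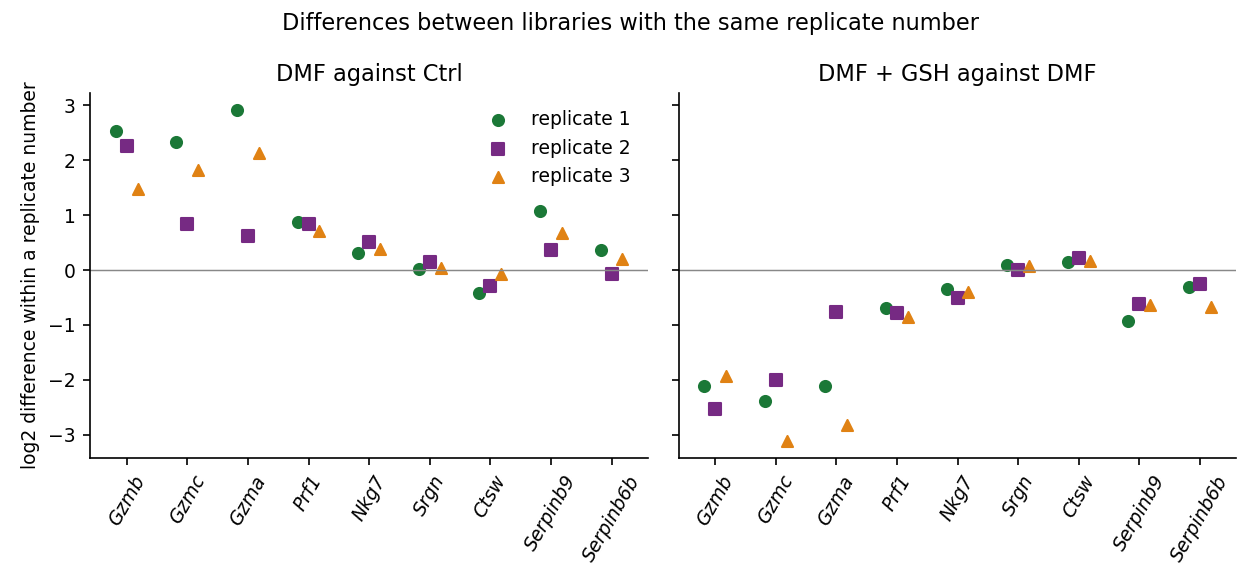
Log2 differences of normalized count + 1 (y axis) between libraries with the same replicate number, for the 9 genes (x axis), for DMF against Ctrl and for DMF + GSH against DMF. Gzmb, Gzmc, Gzma, Prf1, Nkg7 and Serpinb9 lie above 0 in the first and below 0 in the second in all 3 replicate numbers, and Srgn runs from -0.00601 to 0.141 over both.

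DMF + GSH was then set against Ctrl, to ask whether any difference was left. By limma with the batch term 0 of the 9 genes passed, and 0 did with the replicate block, edgeR or voom. At an unadjusted p under 0.05 with the batch term there was 1, Gzmc. With the replicate block the 95% interval of Srgn, from 0.02 to 0.23, lay above 0 too (log2 fold change 0.12, limma adjusted p = 0.831). Within replicate numbers Srgn differed by 0.11, 0.14 and 0.12. Over all genes tested 0% passed with the batch term and 0.00862% with the replicate block, the latter a single gene, and 222 genes had an unadjusted p under 0.05. The groups overlapped in each of the 9 genes, whereas they did not in 4.47% of all genes tested. For the abundant effectors the 95% intervals with the batch term were -0.60 to 0.40 for Gzmb (log2 fold change -0.10) and -0.16 to 0.22 for Prf1 (0.03). Nkg7 had a log2 fold change of -0.01 (95% interval -0.30 to 0.28), and its differences within replicate numbers ran from -0.02 to just below 0. With the replicate block the intervals were -0.38 to 0.17 for Gzmb, -0.10 to 0.16 for Prf1 and -0.13 to 0.11 for Nkg7. Gzmc had the lowest value, -0.84, with a 95% interval from -1.67 to -0.01 (limma adjusted p = 0.999969, unadjusted p = 0.0469), on between 3 and 14 reads per library. These intervals bound the difference and do not show equality.

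Ratios between the granule genes were compared as a description, and no change in them was tested. The ratio of Gzmb to Prf1 normalized counts, which is not corrected for length, was 0.983, 1.12 and 1.94 in Ctrl, 3.09, 3.01 and 3.30 under DMF, and 1.16, 0.885 and 1.57 when GSH was added to it. DMF libraries did not overlap with either of the other groups, but a two-sided exact permutation test of 3 against 3 libraries cannot go below p = 0.1. Gzmb against its inhibitor Serpinb9 gave ratios of 6.86, 6.95 and 21.4 in Ctrl, 18.9, 25.9 and 37.2 under DMF, and 8.36, 6.83 and 15.2 after addition of GSH. Here Ctrl and DMF overlapped, since replicate 3 had the highest ratio in every group, and within each replicate number DMF was the highest. The 9 genes together took 0.105% to 0.118% of all reads in Ctrl, 0.164% to 0.186% under DMF and 0.109% to 0.118% under both compounds. Gzmb alone made up 10.5% to 20.8% of these reads in Ctrl, 36.1% to 38.9% under DMF and 9.91% to 15.6% under both compounds. Since these are bulk libraries, more cells with Gzmb and more Gzmb RNA per cell cannot be told apart.

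**Figure D4:**
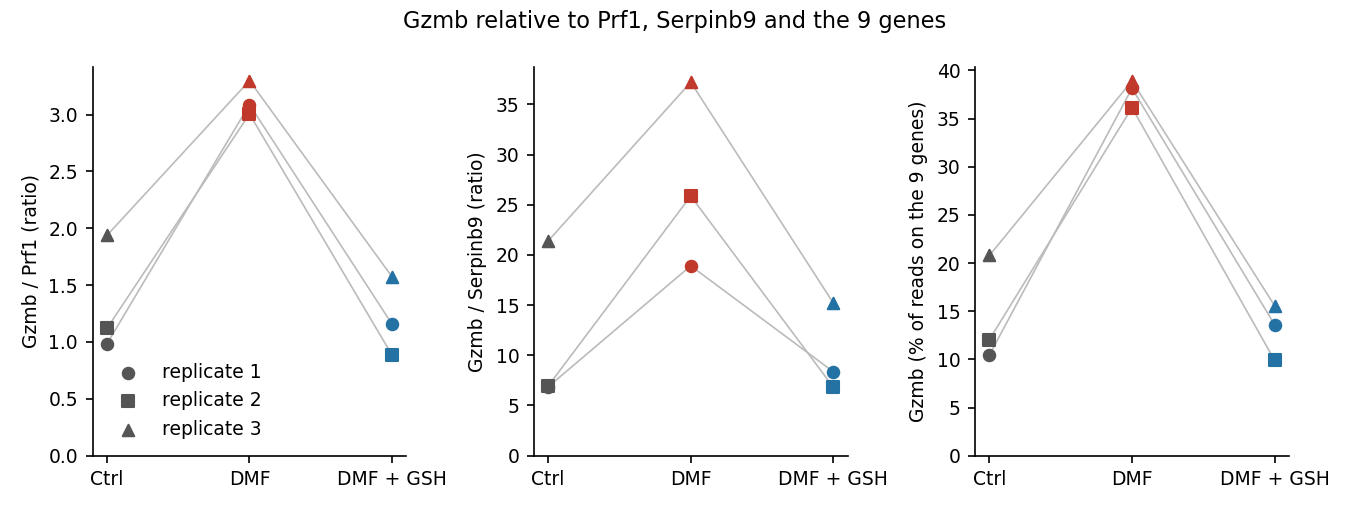
Ratio of Gzmb to Prf1 and of Gzmb to Serpinb9 normalized counts, and share of Gzmb in the reads on the 9 genes in percent (y axes, from 0), by group (x axes). Points are libraries, joined by replicate number. The Gzmb to Prf1 ratio is between 3.01 and 3.30 with DMF and at most 1.94 in the other libraries.

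Of 7 other granzymes, Gzmm alone reached a mean of 10 and was tested. It had 11.9 ± 2.38 in Ctrl and 11.5 ± 1.16 with DMF (SD, n = 3), with a log2 fold change of -0.03 (limma adjusted p = 0.965). Gzmd, Gzme, Gzmf, Gzmg and Gzmn, which share the chromosome 14 cluster with Gzmb and Gzmc, had means over the 9 libraries of 0.92 at most, and Gzmk, the neighbour of Gzma, had 0.12.

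Beside the lists that follow, 41.5% of all genes tested had an unadjusted p under 0.05 for DMF against Ctrl and 37.9% for DMF + GSH against DMF, and 2.89% and 0.543% passed the threshold by limma. Of a list of 8 genes, 7 granule or lysosomal proteases and their inhibitor cystatin F (Cst7), 7 were tested and 0 passed by limma in either of the comparisons with DMF, nor with edgeR or voom, with 2 at an unadjusted p under 0.05 in each. Cathepsin C (Ctsc), which activates the granzyme precursors, had a log2 fold change of 0.15 with DMF (limma adjusted p = 0.156). Cathepsin B (Ctsb), with the largest value of the list for DMF against Ctrl, had -0.44 (limma adjusted p = 0.00942) and then 0.42 with DMF + GSH against DMF (0.0145), below the fold required. Cathepsin Z (Ctsz), with the largest value for DMF + GSH against DMF, had -0.46 there (limma adjusted p = 0.0116) and 0.39 with DMF (0.0117), the opposite signs to Ctsb, and did not pass either. Of 6 membrane proteins of lysosomes and granules 5 were tested and 0 passed in either comparison by limma, edgeR or voom, with 2 at an unadjusted p under 0.05 in each. Lamp2, the largest with DMF, had -0.27 (limma adjusted p = 0.0255). The median log2 fold change with DMF was -0.04 in the first list and -0.08 in the second, against 0.00515 over all genes.

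The machinery that moves granules to the synapse was covered by 19 genes, all of them tested. By limma, edgeR and voom 0 passed in either comparison, with 8 at an unadjusted p under 0.05 for DMF against Ctrl and 3 for DMF + GSH against DMF. Their median log2 fold change with DMF was -0.08, and 13 of 19 were negative, against 5730 of the 11599 genes tested. Syntaxin 11 (Stx11), a SNARE protein whose loss causes familial hemophagocytic lymphohistiocytosis in humans, had the largest value with DMF, 938 ± 43.0 in Ctrl and 629 ± 118 with DMF (SD, n = 3), with a log2 fold change of -0.59 (limma adjusted p = 0.0110, with the replicate block 8.46e-05). Rab27a and Unc13d (Munc13-4), which tether and prime granules, had -0.07 and -0.10. Of 14 enzymes that build chondroitin sulfate on serglycin 12 were tested, and 0 passed in either comparison by limma, edgeR or voom, with 5 and 4 at an unadjusted p under 0.05. Xylt1, a xylosyltransferase that starts the chain, had the largest value, -0.89 at a mean of 16.9 (limma adjusted p = 0.0866). Named after their values were seen, Xylt2 (-0.50, limma adjusted p = 0.00604) and Chpf (0.53, 0.00850) had an adjusted p under 0.01 without the fold required.

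In the list of other intracellular serpins 3 of 12 genes were tested, and 1 rose and 1 fell with DMF. Serpina3g, a serpin of memory CD8+ T cells that inhibits cathepsins, had 26.5 ± 13.0 in Ctrl, 73.2 ± 24.8 with DMF and 30.7 ± 4.23 with DMF + GSH. Its log2 fold change with DMF was 1.49 (limma adjusted p = 0.00661), and with DMF + GSH against DMF it was -1.18 (0.0156, with the replicate block 0.000722). Serpinb1a, an inhibitor of neutrophil elastase and related proteases, had 968 ± 292 in Ctrl, 93.1 ± 30.8 with DMF and 578 ± 212 with DMF + GSH (SD, n = 3). Its log2 fold change was -3.36 with DMF (limma adjusted p = 0.00169) and 2.60 with DMF + GSH against DMF (0.00630). In the latter comparison edgeR also called 1 gene of the list and voom 0, so this call was lost by voom. For DMF + GSH against Ctrl it was -0.76, and it was the single gene that passed with the replicate block there (adjusted p = 0.00364). The third tested gene, Serpinb6a, had -0.24 (limma adjusted p = 0.0631) with DMF.

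The genes most like Gzmb and Prf1 across libraries were sought among 9645 genes with a mean of at least 50, as a description over 9 libraries that share the groups and batches. For Gzmb these were Psma6, a proteasome subunit (Pearson r = 0.993 on log2 values), Mrpl47 (0.9902), a mitochondrial ribosomal protein, Xrcc5 (0.9898), Cnn3 (0.987) and Tfpt (0.979), and their own log2 fold changes with DMF were small, from 0.27 to 0.45. For Prf1 they were Gm12250 (0.986), Ifng (0.970), the gene of IFN-γ, Ppp4r2 (0.968), Tigit (0.965), an inhibitory receptor, and Ppargc1b (0.965), and Ifng had a log2 fold change of 2.87 with DMF. Gzmb and Prf1 themselves correlated with r = 0.932.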

How the data were processed

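Normalized counts of murine Tc17 cells were analysed in 9 libraries, with groups, replicate numbers and batches from the sample titles. Per the methods and the submitters' processing notes, poly(A) RNA was sequenced as single reads of 50 bases, aligned with STAR 2.4.0b to GRCm38, counted with featureCounts on ENSEMBL v76 and fitted with DESeq2 including the batch. The sources used here do not say whether strand was used in counting. The signal the authors deposited is the read count divided by a factor for each library. Whole reads came out for 100% of values after division by the smallest value above 0 of the library (tolerance 0.01). The authors' own fold changes and p-values in the table were not used.

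Limma-trend (limma 3.58.1, R 4.3.3) took log2 of the normalized count plus 1, modelled group and batch, and adjusted by Benjamini-Hochberg over the 11599 of 41388 genes with a mean of at least 10. Fold changes are on that scale, which understates those of rare genes. It was tested on simulated data. Libraries of different groups with the same replicate number correlated, after removal of group means, with 0.447 to 0.578 in all 9 pairs, against at most -0.0621 for different numbers, so the number, given in the titles, pairs the samples. Values with the replicate block stand beside those calls that it alters. Alternatives were pseudocounts of 0.5 and 4, no minimum and a minimum of 50, TMM, quantile normalization, no batch, the block, only the 6 libraries compared, robust eBayes, edgeR 4.0.16 and voom on the whole reads, and each library left out. EdgeR called 338 genes for DMF against Ctrl and 66 for DMF + GSH against DMF, in place of 335 and 63 with limma. Limma with the batch term and 1 library left out called 2 to 680 and 0 to 480. Members and lists were chosen with earlier results of these data known. Named were all 9 genes, genes of the lists past the threshold or else with the largest value, and the 5 genes most correlated with Gzmb and with Prf1. Genes named for their role alone (Ctsc, Rab27a, Unc13d, Serpinb6a) and the untested granzymes were added after their values were seen. Positions and exon lengths come from GENCODE vM21, promoter sequences from RefSeq (GRCm38.p6). The labels and the methods differ on RNA input and extraction reagent. Python 3.11.15 was used with Matplotlib 3.10.9 for the figures and pandas 2.3.3 for the annotation. Human samples of the study were not used here.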

Additional observations from a re-analysis of the deposited data

How the results depend on the processing

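The replicate block raised the number of the 9 genes past the threshold from 2 to 4 for DMF against Ctrl and from 3 to 4 for DMF + GSH against DMF, where the fit of only the 6 libraries compared gave 1 gene. With 1 library left out, with either the batch term or the block, the number ran from 0 to 5 in both of these comparisons. With the batch term it was 0 for DMF against Ctrl without Ctrl replicate 1, DMF replicate 1 or DMF replicate 3, in fits that called 2, 5 and 12 of all genes, and 0 for DMF + GSH against DMF without DMF replicate 1 or 3 or DMF + GSH replicate 1 or 2, in fits that called 4, 0, 0 and 0. With the block and 1 library left out it was at least 1 in the first and at least 3 in the second. The cause was not tested. For DMF + GSH against Ctrl it was 0 under all alternatives. Direction turned only in values that passed no test. These were, for DMF + GSH against Ctrl with 1 library left out, Ctsw (-0.223 to 0.00282), Gzma (-0.47 to 0.398), Gzmb (-0.345 to 0.194), Nkg7 (-0.107 to 0.082), Prf1 (-0.0273 to 0.121), Serpinb6b (-0.548 to 0.122), Serpinb9 (-0.211 to 0.258), and for DMF against Ctrl, Serpinb6b (-0.0858 to 0.498). Gzma in DMF + GSH against Ctrl was also above 0 with a pseudocount of 0.5 (0.0103) and with quantile normalization (0.0208). Between all-gene counts, the block called 789 in place of 335 genes for DMF against Ctrl and 660 in place of 63 for DMF + GSH against DMF. With only the 6 libraries compared it was 43 and 5. With the batch term and 1 library left out it ran from 2 to 680 and from 0 to 480. With the block and 1 library left out it ran from 561 to 865 and from 404 to 728. Gzma and Gzmc rest on 2 to 53 reads per library, so depth limits their precision.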
